A study of Mus musculus with 9 samples.

Results

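The proteasome subunit genes were the protein-coding mouse genes whose symbol starts with Psma, Psmb, Psmc, Psmd, Psme, Psmf or Psmg. A peak of open chromatin belonged to them if its centre lay inside such a gene or within 1000 bases of either end. The prefixes picked 51 of 21631 protein-coding genes, and 46 of these had a peak. They held 84 of the 75936 peaks of the whole table, 48 of them at a gene end (44 genes) and 36 in a gene body (19 genes). Psma7, Psma8, Psmb11, Psmc5 and Psme2b had no peak in the table used here. Psmc3ip, a meiotic recombination factor, and Psme3ip1, a partner of the activator subunit Psme3, carry the prefix without being subunits, and they were kept and are described apart.

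The assay was bulk ATAC-seq, in which a transposase cuts and tags accessible DNA, and the cells were D2A1-d, a line of mouse breast carcinoma. The series belongs to work on the Mediator subunit MED4 and metastatic dormancy, and these libraries bear on Med1, another subunit of the Mediator coactivator. The control group was labelled wild type (WT) and carried a non-targeting control hairpin (NTC, n = 3). The other 2 groups were labelled Med1 knockdown and carried the hairpin shMed1 #2 (n = 3) or shMed1 #4 (n = 3). All 9 libraries were labelled untreated, came from the same line and, as all were transduced, shared exposure to a hairpin vector. Each group is labelled as having biological replicates, but nothing says that they were separate cultures, so the p-values cover the spread among these libraries only. No RNA was measured, so neither the fall of Med1 nor the expression of any gene named here could be checked. Accessibility in bulk cells cannot tell fewer cells with an open site from a less open site in each cell.

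Values are normalized counts, that is, reads in a peak of 501 bases divided by 1 size factor per library. The libraries held 34.8 to 53.7 M reads in peaks. Peaks were tested with limma on log2 values, and a peak was called when its adjusted p was under 0.05 over the 75930 peaks tested. All 84 proteasome gene peaks passed the filter on low values. Of 4 mesenchymal markers, Vim and Fn1 had strong gene-end peaks in NTC (highest means of 4576 and 3358 normalized counts), Zeb1 had a weak one (242) and Cdh2 had none. Of 7 epithelial markers, Krt18 had a weak start peak (209) and Krt14 weak peaks near its ends and none at its start (highest 126), and Krt8, Krt19, Epcam, Cdh1 and Krt5 had no gene-end peak. Of 8 blood and endothelial markers, Csf1r, Lyz2 and Cdh5 had gene-end peaks of 109, 94.0 and 117 normalized counts and the other 5 had none.

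The 26S proteasome is the ATP-dependent protease that degrades ubiquitin-tagged proteins. Its 20S core stacks rings of alpha subunits, which gate the chamber, on rings of beta subunits, which carry the cutting sites. A 19S cap, made of a base of ATPases and a lid, binds, unfolds and feeds the substrates. Dedicated chaperones build the core and the base, and other activators can take the place of the cap. When the proteasome is inhibited, the transcription factor NRF1 (the product of Nfe2l1) raises its subunit genes together through antioxidant response elements. The promoters were therefore searched for that motif, and the motifs were chosen with earlier results of these data known.

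The promoter windows that carry the main contrast are printed first, from RefSeq (GRCm38.p6), 250 bases before to 50 bases after the start. Psmb5, Psmb6 and Psmd9 had the largest falls in accessibility among the peaks at a start with a window, Psme4 held the same motif and was not called, and Psmb3 had the strongest peak of the constitutive beta genes and was not called either. Capitals mark the antioxidant response element (TGACNNNGC) in the first 4 windows and the CCAAT box (CCAAT) in the last. In Psme4 the element lies on the opposite strand, so its capitals read as the reverse complement.
Psmb5, chr14:54617946-54618245, minus strand: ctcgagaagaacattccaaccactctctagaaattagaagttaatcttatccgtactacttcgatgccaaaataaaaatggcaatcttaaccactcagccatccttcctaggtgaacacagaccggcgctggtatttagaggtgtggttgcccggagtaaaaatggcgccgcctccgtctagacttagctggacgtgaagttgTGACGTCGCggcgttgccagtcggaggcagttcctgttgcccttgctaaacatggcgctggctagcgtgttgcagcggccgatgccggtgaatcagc
Psmb6, chr11:70525107-70525406, plus strand: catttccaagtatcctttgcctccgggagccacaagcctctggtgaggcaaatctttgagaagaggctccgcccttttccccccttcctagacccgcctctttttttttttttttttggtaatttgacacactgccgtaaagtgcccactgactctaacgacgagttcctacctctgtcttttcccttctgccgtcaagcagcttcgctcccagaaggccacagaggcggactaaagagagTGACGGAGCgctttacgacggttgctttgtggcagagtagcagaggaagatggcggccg
Psmd9, chr5:123227940-123228239, plus strand: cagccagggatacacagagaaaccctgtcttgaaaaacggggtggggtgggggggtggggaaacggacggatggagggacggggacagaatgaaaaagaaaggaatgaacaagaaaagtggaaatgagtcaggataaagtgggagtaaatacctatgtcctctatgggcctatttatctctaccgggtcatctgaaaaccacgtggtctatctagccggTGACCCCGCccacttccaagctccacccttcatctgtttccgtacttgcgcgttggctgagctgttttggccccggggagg
Psme4, chr11:30771525-30771824, plus strand: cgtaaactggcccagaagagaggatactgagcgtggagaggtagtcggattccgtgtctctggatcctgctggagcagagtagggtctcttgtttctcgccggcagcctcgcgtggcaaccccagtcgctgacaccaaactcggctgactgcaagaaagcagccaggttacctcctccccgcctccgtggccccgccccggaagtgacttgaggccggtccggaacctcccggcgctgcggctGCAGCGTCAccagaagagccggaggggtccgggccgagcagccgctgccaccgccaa
Psmb3, chr11:97703184-97703483, plus strand: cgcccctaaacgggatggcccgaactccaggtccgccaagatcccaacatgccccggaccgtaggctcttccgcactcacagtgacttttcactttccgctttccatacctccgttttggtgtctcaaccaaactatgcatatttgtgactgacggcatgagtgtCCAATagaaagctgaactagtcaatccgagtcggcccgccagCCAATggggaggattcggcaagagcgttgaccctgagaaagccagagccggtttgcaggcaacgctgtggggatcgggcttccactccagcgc

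Proteasome gene-end peaks were strong and mostly lost accessibility in the hairpin cells. Their median NTC level was 1363 normalized counts, against 1090.0 for all 12227 gene-end peaks and 208 for all peaks, so that 59.2% of gene-end peaks lay below it. A mean of at least 500 was reached by 40 of the 48 (83.3%), against 68.6% of all gene-end peaks. Summed over the 48 peaks, the NTC libraries held 69627, 70546 and 72375 normalized counts. The #2 libraries held 67521, 63782 and 62789, and the #4 libraries 67716, 65942 and 65739. All 6 hairpin libraries thus lay below the 3 NTC libraries. The median over all gene-end peaks was likewise lower in each hairpin library than in each NTC library. That median was 1062, 1089 and 1104 normalized counts in NTC, 1052, 969 and 955 in #2, and 1026, 1007 and 1012 in #4. The totals over all peaks went the other way, with 41.2 to 41.5 M normalized counts in NTC and 43.1 to 44.2 M in the hairpin libraries.

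For the mean of both hairpins against NTC, 29 of the 48 gene-end peaks (60.4%) fell and 3 rose. Over all gene-end peaks tested, 32.7% were called lower and 14.4% higher, and over all peaks 17.7% were lower and 22.1% higher. Among gene-end peaks with a mean of at least 500, which compares peaks of like strength, 37% were lower and 17.3% higher, while 24 of the 40 proteasome peaks in that class fell and 3 rose. The median log2 fold change was -0.18 over the 48 peaks, -0.07 over all gene-end peaks and -0.01 over all peaks. The changes were modest: no gene-end peak fell by more than 30.7%. The share of lower calls among all gene-end peaks depended on the scaling. With equal totals, quantile scaling or cyclic loess it was 49.0%, 47.7% or 46.8%, and 37, 40 or 39 of the 48 proteasome peaks fell. Without NTC replicate 3, 23 of the 48 fell, against 23.1% of all gene-end peaks. Without NTC replicate 2, 1 of the 48 rose, against 11.2% of all gene-end peaks.

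**Figure D1:**
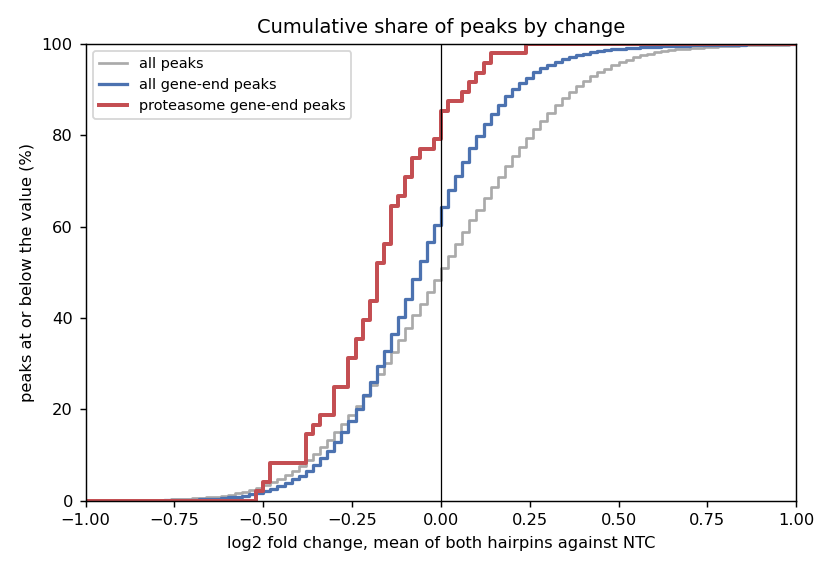
Cumulative share of peaks (%, vertical axis) at or below each log2 fold change for the mean of both hairpins against NTC (horizontal axis), for the 48 proteasome gene-end peaks, all gene-end peaks and all peaks. The curve of the proteasome peaks lies to the left of the others over most of the range, with a median of -0.18 against -0.07 and -0.01.

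Both hairpins gave falls. With #2, 29 of the 48 gene-end peaks fell and 2 rose, against 35.4% lower and 12% higher over all gene-end peaks and 19.5% lower and 23.6% higher over all peaks. With #4, 24 fell and 3 rose, against 22.5% lower and 14.3% higher over gene-end peaks and 12.1% lower and 17.3% higher over all peaks. The #4 count rested on the controls: it was 11 without NTC replicate 3 (against 14.9% of all gene-end peaks) and 17 without NTC replicate 2 (against 16.4%). Which hairpin had more falls depended on the peaks and the fit. With only the groups of each contrast in the fit, 28 gene-end peaks fell with each. In that fit 35.4% of all gene-end peaks were lower with #2 and 24.7% with #4. Over all 84 peaks 35 fell with each, against 19.5% and 12.1% of all peaks. In gene bodies 6 fell with #2 and 11 with #4, and shares by hairpin over all peaks away from gene ends are not given here. The median log2 fold change over the 48 gene-end peaks was -0.19 with #2 and -0.16 with #4. The hairpins share the NTC libraries, and by these calls 21 peaks (43.8%, against 19.5% of all gene-end peaks) were lower with both. A further 8 (16.7%, against 15.9%) were called with #2 and not #4, and 3 (6.25%, against 3%) with #4 and not #2. In 23 of the 48 peaks (47.9%, against 23.4% of all gene-end peaks) all 6 hairpin libraries lay below all 3 NTC libraries.

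**Figure D2:**
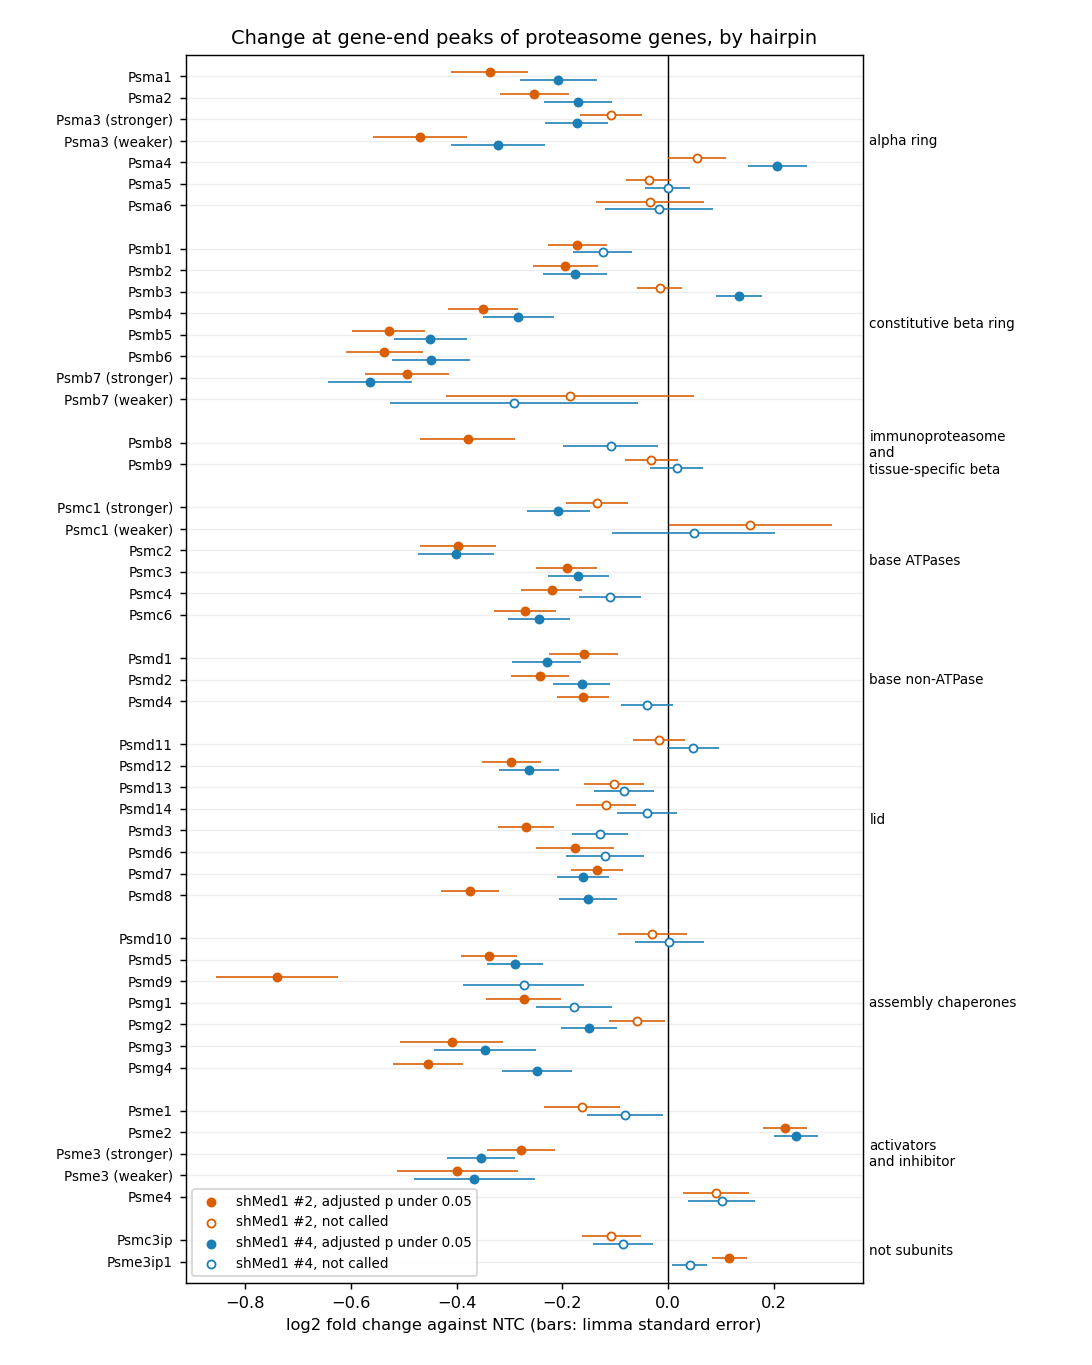
Log2 fold change against NTC (horizontal axis, bars are limma standard errors) at each of the 48 gene-end peaks, grouped by role, with shMed1 #2 in orange and shMed1 #4 in blue and filled points for an adjusted p under 0.05. Most points lie left of 0 for both hairpins; 29 peaks fell with #2 and 24 with #4, and Psmd9, Psmd8 and Psmb8 show the widest gaps between the hairpins.

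Some of these peaks lay at the ends of more than 1 gene. Of the 34 peaks at the end of 1 gene only, 24 fell (70.6%, against 32.4% of all such peaks) and none rose (against 14.2%) in the mean of both hairpins (limma, adjusted p under 0.05). Of the 14 peaks that also lay at another gene's end (29.2%, against 14.7% of all gene-end peaks), 5 fell (35.7%, against 34.3% of all such peaks) and 3 rose (21.4%, against 15.4%). The difference between the kinds of peak was not tested. The 3 that rose were those of Psme2 (shared with Rnf31), Psma4 (shared with Hykk and AY074887) and Psme3ip1 (shared with Rspry1). None of these 3 rises held under each scaling: Psme2 kept its call with equal totals and cyclic loess and lost it with quantile scaling, Psma4 lost it under all 3 and without NTC replicate 1 or 2 or #4 replicate 3, and Psme3ip1 turned to a fall with quantile scaling and cyclic loess. The call at Psme3ip1 was also lost with equal totals and without NTC replicate 2 or 3, #2 replicate 2 or #4 replicate 1.

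**Figure D3:**
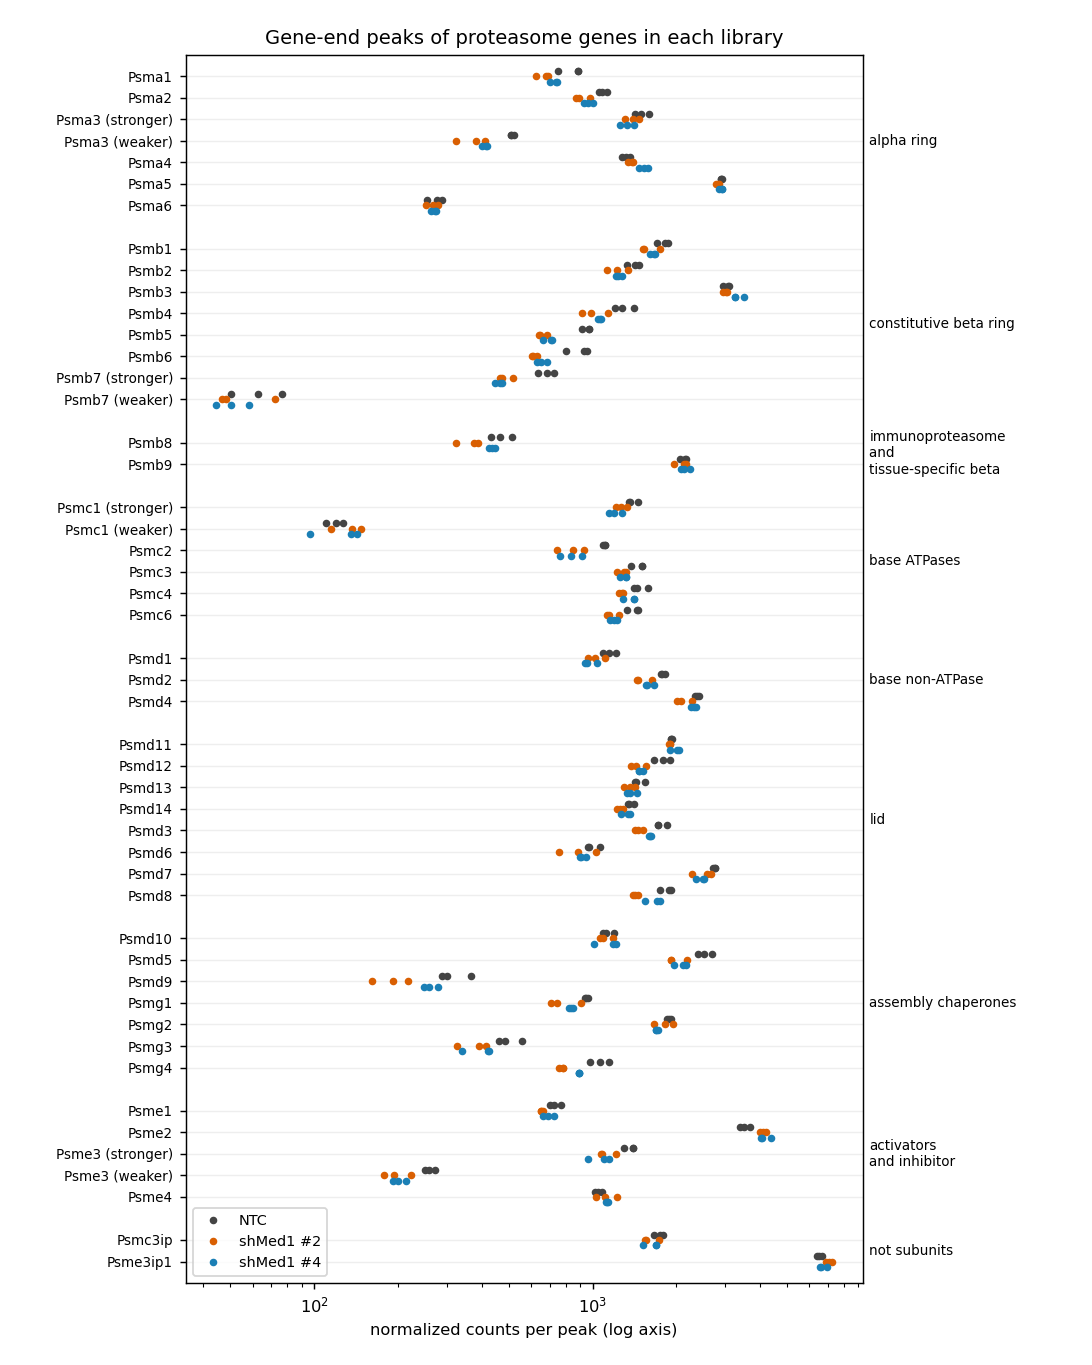
Normalized counts (horizontal log axis) of each of the 48 gene-end peaks in each of the 9 libraries, grouped by role, with NTC in black, shMed1 #2 in orange and shMed1 #4 in blue. The strongest peak is that of Psme3ip1 (6523 in NTC), and in 23 rows all 6 hairpin points lie left of the 3 NTC points.

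The constitutive beta ring held 3 of the 4 largest gene-end falls, with the chaperone gene Psmd9 as the other. Of its 8 gene-end peaks, from 7 genes, 6 fell and none rose, against 32.7% lower and 14.4% higher over all gene-end peaks. The median log2 fold change of the 8 was -0.28. The 3 genes of the catalytic subunits led the falls: Psmb5 (the chymotrypsin-like site), Psmb6 (the caspase-like site) and Psmb7 (the trypsin-like site).

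The Psmb5 peak, chr14:54617764-54618265 (mm10), covers the start printed above. It held 916, 968 and 970.0 normalized counts in NTC, 688, 647 and 642 in #2, and 716, 664 and 709 in #4. Every hairpin library lay below every NTC library, and the level fell by 28.8% (log2 fold change -0.49 ± 0.06 SE, adjusted p = 3.32e-09). At the Psmb6 start (chr11:70525092-70525593) the NTC libraries held 805, 932 and 955 normalized counts, the #2 libraries 633, 613 and 603, and the #4 libraries 684, 653 and 629.9. The groups again did not overlap, with a log2 fold change of -0.49 ± 0.06 (adjusted p = 1.19e-08). At the higher-coordinate end of Psmb7 (chr2:38643634-38644135) NTC held 638, 687 and 724 normalized counts, #2 held 516, 472 and 466, and #4 held 471, 447 and 465. This was the largest fall of the 48 gene-end peaks, by 30.7% (log2 fold change -0.53 ± 0.07, adjusted p = 1.6e-08).

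The beta subunits without a cutting site had smaller values. The peaks of Psmb4 (-0.32), Psmb2 (-0.19) and Psmb1 (-0.15) fell on the log2 scale. Psmb2 was not called without NTC replicate 3 (-0.16, adjusted p = 0.0524), nor Psmb1 without NTC replicate 2 (-0.12, adjusted p = 0.111). Psmb3, the strongest of the ring, held 3095, 3054 and 2951 normalized counts in NTC and 3014, 2952 and 3033 in #2, which overlapped. In #4 it held 3503, 3242 and 3248, all above NTC. The mean of both hairpins was not called (log2 fold change 0.06 ± 0.04, adjusted p = 0.206). The rise with #4 (0.13 ± 0.04, adjusted p = 0.0145) turned negative with quantile scaling (-0.02) and cyclic loess (-0.0015). The weak peak at the lower-coordinate end of Psmb7, shared with Nek6, held a mean of 63.2 normalized counts in NTC and was not called.

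The inducible beta subunits replace the catalytic ones in the immunoproteasome, which trims peptides for antigen display. Psmb8, the counterpart of Psmb5, had a gene-end peak (chr17:34197440-34197941, shared with Tap1) with 464, 430.5 and 515 normalized counts in NTC. It held 373, 324 and 386 in #2, below all NTC libraries, and 433, 423 and 447 in #4, which overlapped NTC. It fell in the mean of both hairpins (log2 fold change -0.24 ± 0.08, adjusted p = 0.0105), and not without NTC replicate 3 (-0.18, adjusted p = 0.141). Psmb9, the counterpart of Psmb6, had a stronger peak shared with Tap1 (chr17:34187484-34187985), with 2167, 2062 and 2151 normalized counts in NTC, 2164, 1956 and 2126 in #2, and 2245, 2137 and 2073 in #4. The 3 groups overlapped, with a log2 fold change of -0.01 ± 0.04 (adjusted p = 0.906). With quantile scaling and cyclic loess this peak was called lower (-0.10 and -0.11). Psmb10, the counterpart of Psmb7, had a gene-body peak that fell (-0.14 ± 0.04, adjusted p = 0.00805).

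The alpha ring was mixed. Of 7 gene-end peaks, from 6 genes, 4 fell, from 3 genes, and 1, that of Psma4, rose. Over all gene-end peaks 32.7% were lower and 14.4% higher. The median log2 fold change of the 7 was -0.14. At the Psma1 start (chr7:114275794-114276295) NTC held 752, 889 and 888 normalized counts, #2 held 691, 681 and 625, and #4 held 738, 702 and 743. The groups did not overlap, though the lowest NTC library lay close to #4 (log2 fold change -0.27 ± 0.06, adjusted p = 0.000511). The Psma2 start, shared with Mrpl32 (chr13:14612926-14613427), held 1083, 1049.9 and 1130.5 normalized counts in NTC, 982, 890.3 and 869 in #2, and 1005, 966 and 928 in #4. It fell as well (log2 fold change -0.21 ± 0.06, adjusted p = 0.00199).

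Psma3 differed along its length. A peak at its annotated end, at -4651 bases from the start in the promoter table (chr12:70969722-70970223), held 509, 508 and 524 normalized counts in NTC, 412, 381 and 324 in #2, and 416, 414 and 402 in #4. The groups were far apart (log2 fold change -0.40 ± 0.08, adjusted p = 4.27e-05). Another Psma3 peak near that annotated end (chr12:70968176-70968677) fell as well (log2 fold change -0.14, adjusted p = 0.0247). It was not called without NTC replicate 3, #2 replicate 2 or #4 replicate 2. The peak at the start in the promoter table was stronger than the first (2377, 2227 and 2387 in NTC) and was not called (0.05 ± 0.04, adjusted p = 0.325). Psma6 likewise had a strong peak at a start inside its annotated span (2329.6, 2318 and 2373 in NTC) that was not called (0.04 ± 0.04, adjusted p = 0.429). The strongest gene-end peak of the ring, at the Psma5 start (chr3:108256750-108257251), held 2894, 2888 and 2908 normalized counts in NTC, 2855, 2786 and 2832 in #2, and 2926, 2849 and 2912 in #4. The groups overlapped and the log2 fold change was -0.02 ± 0.04 (adjusted p = 0.72), while each of the 3 other scalings called it lower, by -0.10 to -0.15.

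The base of the 19S cap holds the ATPases that unfold substrates. Of the 6 ATPase gene-end peaks, from 5 genes, 5 fell, with a median log2 fold change of -0.18, where 32.7% of all gene-end peaks were lower. Without NTC replicate 3 the count was 3 of 6 (and 23.1% of all gene-end peaks), since Psmc4 and Psmc1 lost the call (Psmc1 at -0.14, adjusted p = 0.0815), and over the whole base it went from 7 to 4 of 9. Psmc2 fell most. Its gene-end peak, also at an end of the chaperone gene Dnajc2 (chr5:21784940-21785441), held 1108, 1111 and 1093 normalized counts in NTC, 932, 850.0 and 743 in #2, and 917, 761 and 838 in #4. The lowest NTC library was above the highest hairpin library (log2 fold change -0.40 ± 0.06, adjusted p = 8.37e-07). A second Psmc2 peak, at a start inside the annotated span (chr5:21786433-21786934), held 1145, 1153 and 1230.4 normalized counts in NTC, 1009, 902 and 818 in #2, and 993, 915 and 910.3 in #4. It fell by a like amount (log2 fold change -0.35 ± 0.06, adjusted p = 3.16e-06).

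At the Psmc6 start (chr14:45329402-45329903) NTC held 1334, 1460.1 and 1448 normalized counts, #2 held 1243, 1148 and 1126, and #4 held 1226, 1159 and 1195. The groups did not overlap (log2 fold change -0.26 ± 0.05, adjusted p = 6.27e-05). Psmc3 (chr2:91053815-91054316) went from 1369, 1509.9 and 1499 normalized counts in NTC to 1321, 1291 and 1219 in #2 and 1317, 1251 and 1319 in #4. Its fall was small (log2 fold change -0.18 ± 0.05, adjusted p = 0.00316). The strongest ATPase peak, that of Psmc4 (chr7:28049886-28050387), held 1438, 1407 and 1583 normalized counts in NTC, 1239.6, 1273 and 1283 in #2, and 1285, 1409 and 1405 in #4. One #4 library lay above the lowest NTC library. The fall (log2 fold change -0.17 ± 0.05, adjusted p = 0.00726) was not called without NTC replicate 3 (-0.11, adjusted p = 0.136).

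The non-ATPase scaffold and receptor subunits of the base had 3 gene-end peaks, and 2 fell, where 32.7% of all gene-end peaks were lower. Psmd2, a scaffold that docks ubiquitin shuttles (chr16:20651469-20651970), held 1766, 1772 and 1818 normalized counts in NTC, 1631, 1442 and 1459.9 in #2, and 1552, 1659 and 1571 in #4. All hairpin libraries were lower than all NTC libraries (log2 fold change -0.20 ± 0.05, adjusted p = 0.000514). Psmd1, the other large scaffold (chr1:86064412-86064913), held 1087, 1145 and 1212 normalized counts in NTC, 1104, 1018 and 962 in #2, and 1039, 957 and 940.3 in #4. One #2 library lay within the NTC range, and the fall (log2 fold change -0.19 ± 0.06, adjusted p = 0.00453) was not called without NTC replicate 3 (-0.15, adjusted p = 0.0691). Psmd4, a ubiquitin receptor with the strongest peak of the 3 (chr3:95042351-95042852), held 2335, 2372 and 2415 normalized counts in NTC, 2281, 2079 and 2017 in #2, and 2258, 2359.8 and 2310.2 in #4. It just missed the threshold (log2 fold change -0.10 ± 0.04, adjusted p = 0.052) and was called lower under each of the 3 other scalings.

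In the lid, which removes ubiquitin chains from incoming substrates, 4 of 8 gene-end peaks fell and none rose. Over all gene-end peaks 32.7% were lower and 14.4% higher. The median log2 fold change of the 8 was -0.15. Psmd12 (chr11:107479279-107479780) held 1659.9, 1786 and 1895 normalized counts in NTC, 1549.8, 1427 and 1371 in #2, and 1515, 1463 and 1468 in #4. Every hairpin library was lower than every NTC library (log2 fold change -0.28 ± 0.05, adjusted p = 7.62e-06). Psmd8, whose start peak is also at an end of Catsperg1 (chr7:29180453-29180954), held 1747, 1912 and 1889 normalized counts in NTC, 1460.1, 1398 and 1416 in #2, and 1545, 1708 and 1745 in #4. The #2 libraries lay lowest and the #4 libraries between them and NTC (mean log2 fold change -0.26 ± 0.05, adjusted p = 1.37e-05).

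Psmd3 (chr11:98682061-98682562) fell from 1723, 1717 and 1845 normalized counts in NTC to 1516, 1450.0 and 1421 in #2 and 1612, 1623 and 1597 in #4 (log2 fold change -0.20 ± 0.05, adjusted p = 0.000484). Psmd7, the strongest lid peak (chr8:107588164-107588665), held 2698, 2757 and 2754 normalized counts in NTC, 2568, 2655 and 2271 in #2, and 2507, 2482 and 2357 in #4. The groups did not overlap, and the fall was small (-0.15 ± 0.04, adjusted p = 0.00439). Psmd14, the deubiquitinase of the lid (-0.08, adjusted p = 0.202), Psmd6 (-0.15, adjusted p = 0.0596), Psmd13 (-0.09, adjusted p = 0.13) and Psmd11 (0.01, adjusted p = 0.806) were not called. With equal totals, quantile scaling or cyclic loess Psmd14, Psmd6 and Psmd13 were called lower, which made 7 of 8 in the lid. The share over all gene-end peaks also rose with these scalings, to 49.0%, 47.7% or 46.8% lower. Over the constitutive 26S subunits as a whole (alpha, beta, base and lid), 21 of 32 gene-end peaks fell and 1 rose. In the same fit 32.7% of all gene-end peaks were lower and 14.4% higher. The falls were 26 or 27 of 32 under those scalings and 16 without NTC replicate 3, where 23.1% of all gene-end peaks were lower.

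Among the assembly chaperones 5 of 7 gene-end peaks fell and none rose, against 32.7% lower and 14.4% higher over all gene-end peaks. The median log2 fold change of the 7 was -0.31. Psmd5, a chaperone of the base with the strongest peak here (chr2:34870827-34871328), held 2399, 2521 and 2688 normalized counts in NTC, 2190.2, 1915 and 1919 in #2, and 2160.2, 1959 and 2107 in #4. The groups did not overlap (log2 fold change -0.31 ± 0.05, adjusted p = 2.19e-07). Psmd9, another base chaperone (chr5:123228010-123228511), held 299.9, 288 and 364 normalized counts in NTC, 218, 191 and 161 in #2, and 248, 278 and 258 in #4. All hairpin libraries lay below NTC (log2 fold change -0.51 ± 0.10, adjusted p = 4.85e-05), and the fall with #4 alone was not called (-0.27 ± 0.11, adjusted p = 0.0657).

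Psmg4, a chaperone of the alpha ring (chr13:34162803-34163304), held 980.3, 1065 and 1143 normalized counts in NTC, 784, 784 and 755 in #2, and 891, 891 and 897 in #4. The 3 groups formed 3 separate levels (mean log2 fold change -0.35 ± 0.06, adjusted p = 2e-06). Psmg3, its partner in that step (-0.38), and Psmg1, of the other chaperone pair (-0.23), also fell on the log2 scale. Psmg2 (-0.10, adjusted p = 0.0655) and the base chaperone Psmd10 (-0.01, adjusted p = 0.868), whose peaks are shared with Cep76 and Atg4a, were not called. Psmg2 was called lower under each of the 3 other scalings.

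The alternative activators went in both directions. Psme3, which forms the nuclear PA28 gamma activator, had 2 gene-end peaks, and both fell. At its start (chr11:101315986-101316487) NTC held 1295, 1394 and 1398 normalized counts, #2 held 1216, 1075 and 1082, and #4 held 1146, 961 and 1096. The groups did not overlap (log2 fold change -0.32 ± 0.06, adjusted p = 8.56e-06). The peak at its other end, shared with Aoc2 (chr11:101323570-101324071), held 250.7, 259 and 271 normalized counts in NTC, 223, 177 and 193 in #2, and 192, 213 and 200.3 in #4, which was a fall of like size (-0.38 ± 0.10, adjusted p = 0.00167).

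Psme2, which with Psme1 forms the interferon-inducible PA28 activator, had the highest gene-end peak of any gene with a proteasome role (chr14:55591367-55591868), at -516 bases from its start and shared with Rnf31. It held 3686, 3485 and 3381 normalized counts in NTC, 3988, 4108 and 4201 in #2, and 4376, 4030.1 and 4074 in #4. Every hairpin library lay above every NTC library (log2 fold change 0.23 ± 0.04, adjusted p = 7.21e-07), but with quantile scaling the rise was 0.05 and not called. Psme1 (-0.12, adjusted p = 0.111) and Psme4, the PA200 activator (0.10, adjusted p = 0.157), were not called. Of the 2 genes that are not subunits, Psmc3ip was not called (-0.10, adjusted p = 0.107; like Psme1, lower under each of the 3 other scalings), and the rise at Psme3ip1 (0.08, adjusted p = 0.0288) turned to a fall under 2 other scalings.

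Away from gene ends, 11 of 36 proteasome peaks fell and 2 rose, where 14.8% of all peaks away from gene ends were lower and 23.6% higher. These peaks were mostly weak, with a median NTC level of 184.5 normalized counts. The 2 that rose had the smallest adjusted p of the 84, and another peak of each gene fell: the start peak of Psmf1 and the peak at the higher-coordinate end of Psmb7. In Psmf1, which encodes the proteasome inhibitor PI31, a peak 20740 bases from the start (chr2:151720320-151720821) held 280.2, 257 and 240.2 normalized counts in NTC, 398, 498 and 512 in #2, and 554, 584 and 593 in #4. The level rose by 100.1% (log2 fold change 1.00 ± 0.08, adjusted p = 2.16e-14). The Psmf1 start peak fell from 988, 972 and 1000.3 normalized counts in NTC to 879, 855 and 777 in #2 and 821, 842 and 894 in #4 (-0.23 ± 0.06, adjusted p = 0.00139).

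In Psmb7, a strong gene-body peak (chr2:38621444-38621945) held 2091, 1916 and 1842 normalized counts in NTC, 2863, 3156 and 3205 in #2, and 2581, 2545 and 2567 in #4. All hairpin libraries were above all NTC libraries, #2 more than #4 (log2 fold change 0.53 ± 0.04, adjusted p = 2.44e-14). The higher-coordinate end of the same gene had the largest gene-end fall given above, and the other 7 peaks in its body were weak and not called. Both rises kept their call and direction in the mean of both hairpins under each alternative run. The deepest fall in a gene body was in Psmg1, where the peak went from 143, 123 and 133 normalized counts in NTC to 93.1, 96.7 and 104 in #2 and 91.2, 83.8 and 63.4 in #4 (-0.59 ± 0.14, adjusted p = 0.00083).

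**Figure D4:**
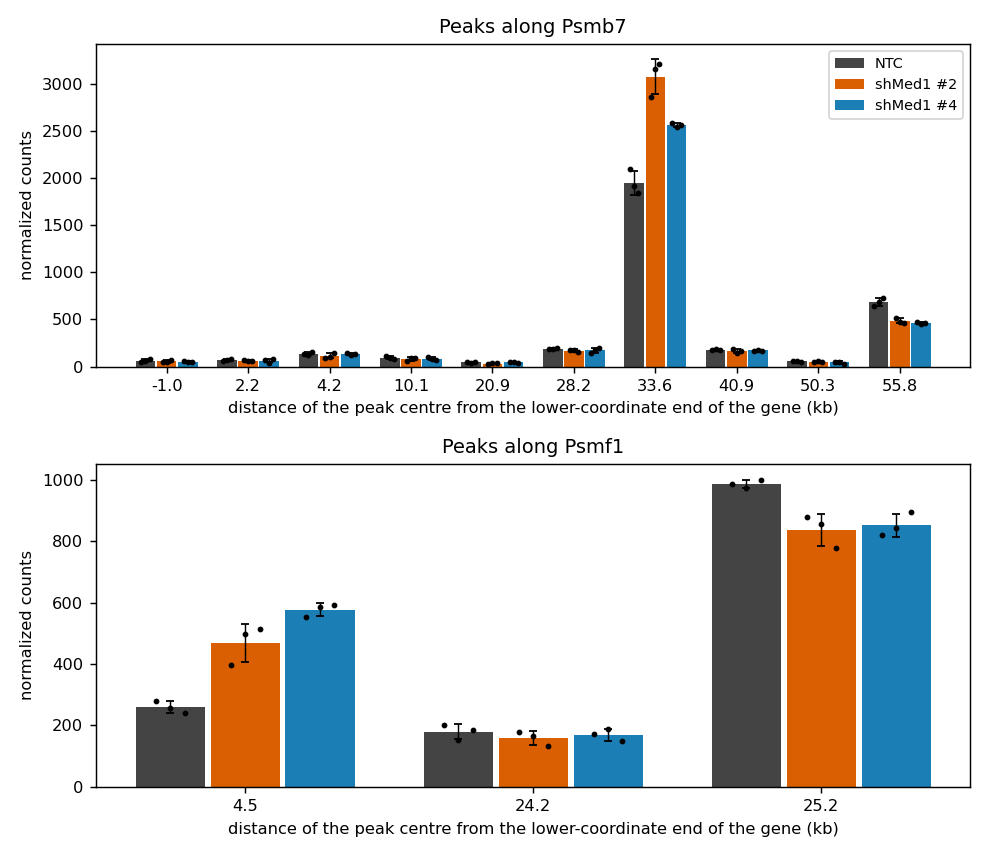
Normalized counts (vertical axis) of the peaks along Psmb7 (above) and Psmf1 (below), by distance of the peak centre from the lower-coordinate end of the gene in kb; bars are group means, error bars SDs (n = 3) and dots single libraries. In each gene 1 peak inside the body is higher with both hairpins (Psmb7 rose by 44.1%, Psmf1 by 100.1%) while another is lower, at the higher-coordinate end of Psmb7 and at the Psmf1 start inside the annotated span.

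The hairpins differed at 11 of the 84 peaks when #4 was tested against #2 directly. Over gene ends, 6 of 48 were higher in #4 and none lower, where 11.5% of all gene-end peaks were higher and 3.7% lower. Over all 84 peaks 7 were higher and 4 lower, against 8.48% and 13% of all peaks. Without #4 replicate 3, 6 of the 84 peaks differed, and 3 of the 48 gene-end peaks were higher, against 8.88% of all gene-end peaks. The smallest adjusted p belonged to the Psmb7 body peak, which rose less with #4 (difference in log2 fold change -0.26 ± 0.05, adjusted p = 6.53e-05). Next were Psmd9 (0.47 ± 0.11, adjusted p = 0.00185) and Psmd8 (0.22 ± 0.06, adjusted p = 0.00192), where the fall was smaller with #4.

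Promoter sequence was compared for the 38 genes with a window and a peak at a start. The windows of Psmb8 and Psme2 lay outside the peak they were paired with, and 32% of the Psmb9 window lay inside its peak. The 38 windows were richer in GC than the 32851 windows of the whole RefSeq table, with medians of 59.0% and 52.7%, and in CpG (median observed over expected 0.76 against 0.38). On either strand, the ETS core CCGGAA was found in 21 of the 38 (55.3%), against 14.9% of all windows, and the GC box GGGCGG in 22 (57.9%), against 35.7%. The CCAAT box was found in 12 (31.6%, against 37.4%), the heat shock pair TTCNNGAA in 2 (5.3%, against 8.5%) and the AP-1 letters TGANTCA in 2 (5.3%, against 7.8%). All windows include starts with no open chromatin here. Over the 11361 genes with a window and a peak at a start, the ETS core was found in 27.7% and the GC box in 62.7%. The CCAAT box was found there in 38%, the heat shock pair in 6.6% and the AP-1 letters in 6.28%. By that measure the GC box was no more frequent in the proteasome windows. GC content was not matched.

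The antioxidant response element was found in 6 of the 38 windows (15.8%). It was found in 12.4% of all windows and in 14.5% of genes with a window and a peak at a start. The 6 were Psmd9, Psmb6 and Psmb5, which had the largest falls of the 38, and Psmd12, Psmc6 and Psme4. In Psmb5, Psmb6, Psmd9 and Psme4 the match lay 47, 9, 31 and 7 bases before the start. In Psmd9 it overlapped a GC box, and in Psme4 it lay on the opposite strand. In Psmc6 and Psmd12 the match also lay on the opposite strand, near the far edge of the window, 227 and 247 bases before the start. With 6 bases on either side, or as many as the window holds, it reads as follows.
Psmc6: ccagtaGCTAAGTCAggcatt
Psmd12: tctGCTGTGTCAcatttg

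Of the 6 peaks with the element, 5 fell, with a median log2 fold change of -0.38, and of the 32 without it 16 fell, with a median of -0.16. Psme4, with the element next to its start, was not called. Over all 11361 genes with a window and a peak at a start, 34.9% of the peaks with the element were lower and 33.9% of those without it. Of the 12 proteasome peaks with a CCAAT box 4 fell, with a median of -0.09, and of the 26 without it 17 fell, with a median of -0.23. Over all such genes 29.6% of the peaks with a CCAAT box were lower and 36.8% of those without it. With the ETS core 11 of 21 fell and without it 10 of 17, where over all such genes 40.3% and 31.6% were lower. For the GC box the counts were 12 of 22 and 9 of 16 (36.7% and 29.6% over all such genes). For the heat shock pair they were 1 of 2 and 20 of 36 (35.7% and 33.9%). The differences between windows with and without a motif were not tested, and 6 and 12 windows are few. As the motifs were chosen with earlier results of these data known, these counts are descriptions only. The CCAAT boxes of the uncalled Psmb3 lay 85 and 43 bases before its start. The AP-1 letters were found in Psmd9 and Psmb5 only, outside the antioxidant response element. Both of these peaks fell, as did 19 of the 36 without the letters. Over all 11361 genes with a window and a peak at a start the order was the other way. There 23.8% of the peaks with the AP-1 letters were lower and 34.7% of those without them. These letters describe the windows, and binding of any factor was not measured.

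Genes that work with the proteasome were read from a list of 27, covering ubiquitin and its activation, shuttles, receptors, deubiquitinases, cofactors and the NRF1 pathway. Of these, 26 had a peak, and of their 59 peaks 20 fell and 8 rose in the mean of both hairpins, where 17.7% of all peaks were lower and 22.1% higher. At gene ends 14 of 32 fell and 2 rose, against 32.7% and 14.4% of all gene-end peaks. Among the falls was that of Ddi2, the protease that activates NRF1 (log2 fold change -0.39 ± 0.07, adjusted p = 8.4e-06). Ddi2 held 671, 809 and 781 normalized counts in NTC, 586, 526 and 571 in #2, and 552, 607 and 612 in #4, with no overlap. Its group on the list, transcriptional regulators and their processing, held 4 genes and went both ways. Of their 5 gene-end peaks 2 fell and none rose, and of their 6 gene-body peaks none fell and 3 rose. Of all peaks away from gene ends, 14.8% were lower and 23.6% higher. The median log2 fold change over the 11 peaks of the group was 0.07.

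The rises with the smallest p-values were at Adrm1, a ubiquitin receptor of the cap, and in the bodies of Ecpas, a proteasome-binding scaffold, and Nfe2l2, which encodes the oxidative stress factor NRF2. The Adrm1 start held 4279, 4305 and 4145 normalized counts in NTC, 4712, 5081 and 4874 in #2, and 5086, 5126 and 4989.8 in #4. All hairpin libraries lay above all NTC libraries (log2 fold change 0.23 ± 0.03, adjusted p = 9.63e-08), but with quantile scaling the change was 0.0021 and not called (adjusted p = 0.962). The Ecpas body peak rose by 0.42 ± 0.05 (adjusted p = 1.38e-08) and the Nfe2l2 body peak by 0.29 ± 0.04 (adjusted p = 1.68e-07) on the log2 scale.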

How the data were processed

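The authors deposited normalized counts per peak, a signal that the file's name credits to DESeq2: reads in a peak divided by 1 size factor per library. Per the submitters' processing notes the tools were Trim Galore, BWA, MACS2 and featureCounts (Subread) on mm10 (GRCm38). Versions, peak merging, duplicate removal and the transposase offset were not given in those notes, the labels or the file. In each library 100% of values were whole multiples of 1 step (within 0.01 of a whole number), which gave 34.8 to 53.7 M reads in peaks. As no value stood for 1 read, the step could not be checked, and no count model was run.

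A pseudocount of 1 was added, and the log2 values of peaks averaging 10 or more (75930 tested, 6 left out) were fitted with limma 3.58.1 with trend in R 4.3.3 (data.table version 1.17.8), with 1 mean per group over all 9 libraries and no further scaling. The 4 contrasts were each hairpin against NTC, their mean against NTC, and #4 against #2. Tests were two-sided, and Benjamini-Hochberg adjustment ran over every peak tested in a contrast (threshold 0.05). Fold changes are on the log2(value + 1) scale and understate the change of low peaks. The fit was tested on simulated data. Shares over all gene-end peaks, and over all genes with a promoter window and a peak within 1000 bases of its start (the strongest such peak of each gene), came from the same fit. Counts used Python 3.11.15 with pandas 2.3.3.

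Genes came from RefSeq (GRCm38.p6), whose gene list holds no strand, so a gene-end peak had its centre within 1000 bases of either end of a protein-coding gene. Start sites came from the RefSeq promoter table, without Psmb1, Psmb2, Psmb7, Psmc3, Psmd3, Psmd7, Psma8 and Psmg2. Coordinates are as deposited, and whether they count from 0 or 1 is not stated.

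Values in all 9 libraries are given for up to 3 called gene-end peaks of each role group with the smallest adjusted p and for its strongest, and for 3 peaks away from gene ends and 3 in #4 against #2 with the smallest adjusted p. Those of the start peaks of Psma3, Psma6 and Psmf1 and of the Psmg1 body peak were chosen after their values were seen. Of the genes that work with the proteasome, up to 3 peaks higher and 3 lower with the smallest adjusted p were to be named; some of these are not reported here, though the counts over that list include them. The members, lists and motifs were chosen with earlier results of these data known. Alternatives were other scalings (equal totals, quantile, cyclic loess), a pseudocount of 10, no filter, a mean of at least 50, leaving out each library, the replicate number as a block, only the groups of the contrast, a window of 500 bases and, added after seeing the data, voom weights on the worked-out reads.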

Additional observations from a re-analysis of the deposited data

Results flagged for a closer look

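The hairpins #4 and #2 were tested against each other at every peak, and 11 of the 84 proteasome gene peaks differed (limma, adjusted p under 0.05 over all peaks). By the same test 8.48% of all peaks were higher and 13% lower in #4, so such differences were no more frequent here. Of all gene-end peaks 11.5% were higher and 3.7% lower, where 6 of the 48 proteasome peaks were higher. Values are the log2 difference #4 minus #2. At 6 gene-end peaks #4 was higher: Psmd9 by 0.47 (adjusted p = 0.00185), Psmb8 by 0.27 (0.024), Psmd8 by 0.22 (0.00192), Psmg4 by 0.21 (0.0189), Psma4 by 0.15 (0.0425) and Psmb3 by 0.15 (0.00801). In the gene bodies #4 was higher by 0.31 at Psmf1 (0.0129). It was lower at Psmb7 with -0.26 (6.53e-05), Psme3ip1 with -0.26 (0.00823), Psmd11 with -0.24 (0.0293) and Psmd5 with -0.17 (0.00653). At Psmd9, Psmb8, Psmd8 and Psmg4 the level fell in the mean of both hairpins and was lower in #2 than in #4. At the Psmb7 and Psmf1 bodies it rose with both, further with #2 in Psmb7 and further with #4 in Psmf1. How far each hairpin lowered Med1 was not measured in these libraries, and its part in the differences was not tested.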

How the results depend on the processing

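Over the 84 peaks the mean of both hairpins gave 40 falls and 5 rises, against 17.7% lower and 22.1% higher over all peaks. Falls outnumbered rises against NTC under every alternative run. Over all gene-end peaks, too, lower calls outnumbered higher ones in each fit against NTC (32.7% and 14.4% in the main fit of the mean). Rises depended on scaling: with equal totals, quantile scaling and cyclic loess there were 3, 2 and 3 in the mean of both hairpins (main 5) and 3, 2 and 3 with #2 (main 5), and with #4 there were 3 under quantile scaling and 2 under cyclic loess (main 5). The share of all gene-end peaks higher in the mean also went down, to 7.99%, 7.4% and 7.81% (main 14.4%). In the same order of scalings the median log2 fold change over the 84 peaks was -0.26, -0.22 and -0.23 in the mean (main -0.18), -0.27, -0.23 and -0.23 with #2 (main -0.19), and -0.24, -0.22 and -0.22 with #4 (main -0.17). In #4 against #2, 2 peaks were lower under quantile scaling (main 4). Psmb3 reversed: with quantile scaling to -0.0901 in the mean (adjusted p = 0.0304) and -0.0243 with #4, and with cyclic loess to -0.0015 with #4. Psme3ip1 turned from 0.08 to -0.201 (quantile scaling) and -0.0935 (cyclic loess) in the mean. The cause was not tested.

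Leaving out 1 library at a time gave 3 to 5 rises in the mean, 23 to 44 calls and 19 to 39 falls with #4 (fewest without NTC replicate 3), and in #4 against #2 6 to 11 calls, 3 to 8 of them higher, with a median of -0.0064 to 0.0682. The shares over all gene-end peaks moved in these fits as well. There 14.9% (without NTC replicate 3) to 24.7% (without #2 replicate 1) were lower with #4. In the mean 11.1% to 14.6% were higher, and in #4 against #2 6.69% to 15.3% were higher. Of 26 named peaks called in the mean of both hairpins, 22 kept the call under every alternative, and Psme2 (quantile scaling), Psmc4, Psmd1 and Psmb8 (without NTC replicate 3) lost it. With the replicate block 39 peaks fell and 5 rose in the mean, where 31.6% of all gene-end peaks were lower and 13.8% higher. Deviations of same-numbered libraries from their group means correlated at -0.08 to 0.03, so the numbers were not taken to pair the libraries. A pseudocount of 10, no filter, a mean of at least 50, voom weights, only the groups of the contrast and a window of 500 bases moved no count by more than 1.5 times. Weak peaks rest on few reads, so small changes there were not detectable at this depth.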
